A study of Drosophila melanogaster with 16 samples.

Results

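The binding sites of 2 chromatin proteins, ROW and HP1b, were compared in fly heads, and both sets of sites were then split by whether a related protein, HP1c, had a peak at the same place. The ROW list held 5302 peaks and the HP1b list 2508, together 7810 of the 23128 peaks in the 5 lists of the series. A ROW peak and an HP1b peak counted as shared with an overlap of 1 bp or more, and HP1c counted as present on a peak that it overlapped by 1 bp or more. All 16 chromatin immunoprecipitation libraries came from heads of Drosophila melanogaster of 1 control genotype, Actin-gal4/+ (W1118), in which a driver active in most cells is carried over a white-eyed background, so every antibody was read in chromatin that carries the driver. ROW, HP1c, WOC and H3K4me3 had 3 libraries each, while HP1b and IgG had 2, all from flies reared at the same temperature and light cycle. A head mixes neurons, glia, fat and other cells, so a shared site need not be bound by both proteins in the same cell. The labels give no age or sex.

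ROW (relative of woc) and WOC (without children) are zinc-finger proteins that bind chromatin together. HP1b and HP1c belong to the heterochromatin protein 1 family, whose members carry a chromodomain, which binds methylated histone tails, and a chromoshadow domain, through which they pair with each other and with partner proteins. HP1a, the founding member, marks pericentromeric heterochromatin, whereas HP1c is mainly found in euchromatin and HP1b in both. In Drosophila, HP1c is known as a partner of WOC and ROW in a common complex. The comparison therefore asks whether ROW meets HP1b also at places where HP1c has no peak.

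Each antibody had 1 peak list with its replicates already combined, so the spread between replicates is not known and no p-value was computed. The factor lists give no height per peak, and the sequencing depth is unknown. Intervals in brackets are 95% Wilson intervals for shares and 95% Newcombe intervals for differences. They cover counting error only and treat each peak as a separate observation. Absence of a peak says only that none was called, and the HP1b list, from fewer libraries, is the shortest of the 4 factor lists.

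ROW and HP1b shared a large part of the HP1b list and a smaller part of the ROW list. Of the 2508 HP1b peaks, 1488 overlapped a ROW peak, or 59.3% (57.4 to 61.2). Of the 5302 ROW peaks, 1474 overlapped an HP1b peak, or 27.8% (26.6 to 29.0). This left 1020 HP1b peaks without ROW and 3828 ROW peaks without HP1b. The shared peaks formed 1503 overlapping pairs. Almost all were simple pairs, since 25 ROW peaks met more than 1 HP1b peak and 15 HP1b peaks met more than 1 ROW peak.

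Most of the shared sites were also HP1c sites. HP1c lay on 1337 of the 1474 ROW peaks with HP1b, or 90.7% (89.1 to 92.1), but on 1076 of the 3828 ROW peaks without HP1b, or 28.1% (26.7 to 29.6), beside 45.5% of all ROW peaks. On the other side, HP1c lay on 1346 of the 1488 HP1b peaks with ROW, or 90.5% (88.9 to 91.8), and on 543 of the 1020 HP1b peaks without ROW, or 53.2% (50.2 to 56.3), beside 75.3% of all HP1b peaks. Among the 1503 pairs, HP1c overlapped both peaks in 1356 and neither in 132. It touched the ROW peak alone in 10 pairs and the HP1b peak alone in 5. Paired peaks lay nearly on top of each other, so an HP1c peak on either usually meets both. These counts therefore say little about HP1c itself.

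**Figure D1:**
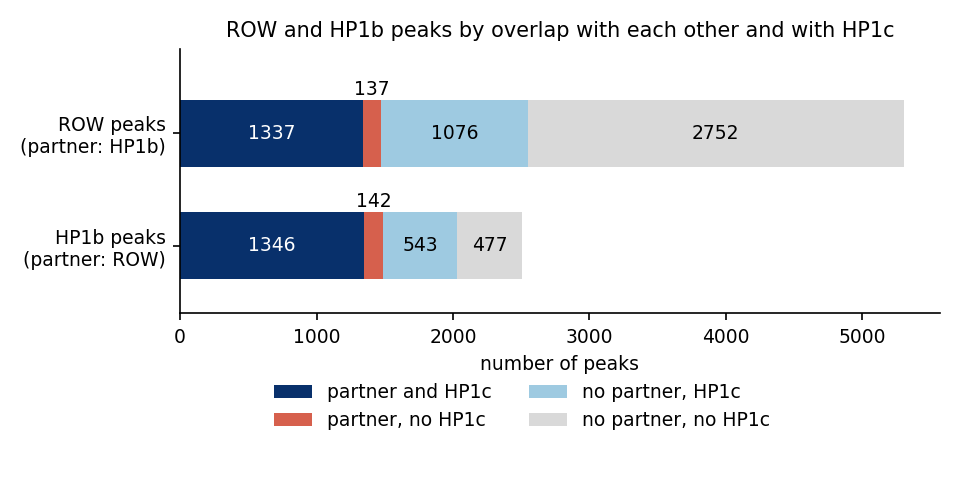
Number of ROW peaks (upper bar) and HP1b peaks (lower bar), split by whether the peak overlaps a peak of the other factor (the partner) and an HP1c peak. The partner-positive part without HP1c is the narrow red segment, 137 of 5302 ROW peaks and 142 of 2508 HP1b peaks.

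Where HP1c had no peak, the overlap was much smaller but did not vanish. Of the 2889 ROW peaks without HP1c, 137 overlapped HP1b, or 4.74% (4.03 to 5.58), against 1337 of the 2413 with HP1c, or 55.4% (53.4 to 57.4). The difference was 50.7 percentage points (48.5 to 52.8), an 11.7-fold higher share with HP1c. Taking only the peaks above the median width of each factor list gave 21.3-fold, and only those below it 3.01-fold. This also removes partners and HP1c peaks by construction, so these folds do not show how the share varies with width. The shares by width class with the complete lists are given further below. Of the 619 HP1b peaks without HP1c, 142 overlapped ROW, or 22.9% (19.8 to 26.4), against 1346 of the 1889 with HP1c, or 71.3% (69.2 to 73.3). The difference was 48.3 points (44.3 to 52.0) and 3.11-fold, with 4.08-fold and 1.51-fold in the same upper and lower parts of the lists.

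The remaining overlap was set beside the area that ROW peaks take up. ROW peaks covered 2.21% of the bases between the outermost peaks of each contig, the mitochondrial genome left out. The centre of an HP1b peak fell inside a ROW peak for 127 of the 619 HP1b peaks without HP1c, or 20.5% (17.5 to 23.9). On the main arms (2L, 2R, 3L, 3R and X) it was 106 of 492, or 21.5% (18.1 to 25.4), beside a ROW cover of 2.08%. For HP1b peaks with HP1c the centre fell inside ROW in 67.8% (65.7 to 69.9). Counted in bases, ROW covered 526 kb of the 0.765 Mb of HP1b sequence under HP1c, or 68.7%, and 74.7 kb of the 0.340 Mb outside HP1c, or 21.9%. Immunoprecipitation peaks in general gather at accessible chromatin, so the cover of the whole span is a low reference, and no test against chance placement was made.

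HP1c peaks just beside the site were then also counted as present. With no HP1c peak within 1 kb, 114 of 520 HP1b peaks still overlapped ROW, or 21.9% (18.6 to 25.7). With none within 5 kb the count was 71 of 318, or 22.3% (18.1 to 27.2). Seen from ROW the share was 109 of 2700 peaks, or 4.04% (3.36 to 4.85), with none within 1 kb. With none within 5 kb it was 69 of 1922, or 3.59% (2.85 to 4.52). The share of HP1b peaks stayed within the interval of the 22.9%, whereas that of ROW peaks at 5 kb fell below the interval of the 4.74%. The shared peaks without HP1c dropped to 69 of the 137 for ROW and 71 of the 142 for HP1b at that distance.

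The reverse split gave a different picture. Where HP1b had no peak, ROW still met HP1c at 1076 of 3828 ROW peaks, or 28.1%, which is 23.4 points (21.7 to 25.0) above the 4.74% for HP1b where HP1c was absent. HP1c peaks without HP1b overlapped ROW in 1104 of 2367 cases, or 46.6% (44.6 to 48.7), beside 57.5% of all HP1c peaks. This was 23.7 points (19.7 to 27.4) above the 22.9% for HP1b peaks without HP1c. The HP1c list is 4252 peaks long, and the part of list length in these gaps was not tested.

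The peaks of a shared pair lay nearly on top of each other, although the overlap rule itself bounds the distance between their centres. Outside the mitochondrial genome the centres of the 1502 pairs were a median of 62.5 bp apart (quartiles 26 and 127 bp), and the median stretch shared was 343 bp (274.2 to 457). A median of 94.2% of the HP1b peak lay inside the ROW peak. The HP1b peak sat wholly inside the ROW peak in 594 pairs, 39.5% (37.1 to 42.0), and wholly enclosed it in 290, 19.3% (17.4 to 21.4).

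The centres were also close in pairs without HP1c, whose narrower peaks set a tighter bound on that distance. In the 132 pairs with HP1c on neither peak the centres were a median of 53.75 bp apart (26 to 105.8), beside 63.5 bp (26 to 128.9) in the 1370 with HP1c. Centres lay within 100 bp in 97 of the 132, or 73.5% (65.4 to 80.3), and in 919 of the 1370, or 67.1% (64.5 to 69.5). The stretch shared was shorter without HP1c, at a median of 269 bp beside 352.5 bp, and the peaks themselves were narrower, with median widths of 352.5 and 319.5 bp for ROW and HP1b beside 531 and 424 bp. The widths of the 2 peaks of a pair were weakly related: Spearman's rho was 0.252 over 1286 pairs with HP1c whose peaks meet no other, and 0.0133 over the 132 without. These are descriptions across peaks of the same libraries.

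Few pairs stood near the 1 bp limit of the rule. Just inside it, 11 of 1503 pairs shared under 50 bp, and the smallest stretch was 10 bp. Just outside it, the closest HP1b peak without ROW was 57 bp away and the closest ROW peak without HP1b was 38 bp away, and within 100 bp there were 2 such HP1b peaks and 3 such ROW peaks. HP1b peaks without ROW lay a median of 7400 bp from the nearest ROW peak (quartiles 2699.8 and 19394.8). ROW peaks without HP1b lay a median of 18257.5 bp from the nearest HP1b peak. Few HP1b peaks stood just beside ROW: 37 of the 1020 without ROW lay within 500 bp of a ROW peak and 97 within 1 kb.

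**Figure D2:**
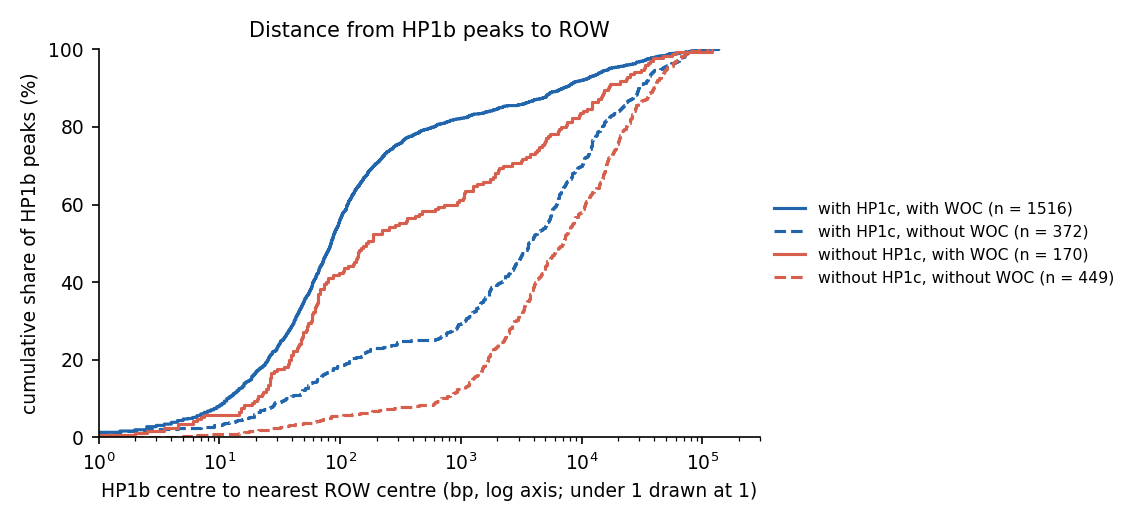
Cumulative share of HP1b peaks (vertical axis, %) by the distance between its centre and the nearest ROW centre (horizontal axis, bp on a log scale), for HP1b peaks with or without an HP1c peak and with or without a WOC peak, the mitochondrial peak left out. The solid lines, with WOC, rise steeply below 200 bp, and the dashed red line, without HP1c and WOC, stays low until about 1000 bp.

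The peaks were also split by WOC, the zinc-finger partner of ROW. HP1b peaks without HP1c overlapped ROW more often where WOC was present. Among the 619 HP1b peaks without HP1c, 170 carried WOC and 105 of these overlapped ROW, or 61.8% (54.3 to 68.7). Of the 449 with neither HP1c nor WOC, 37 overlapped ROW, or 8.24% (6.04 to 11.2). The difference was 53.5 points (45.5 to 60.8). Among HP1b peaks with HP1c the same contrast was 1252 of 1517, or 82.5% (80.5 to 84.4), with WOC and 94 of 372, or 25.3% (21.1 to 29.9), without, 57.3 points (52.2 to 61.8) apart. Over all peaks, WOC lay on 67.3% of HP1b and 74.4% of ROW peaks.

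From the ROW side WOC separated the peaks less. Of ROW peaks with HP1b and no HP1c, 101 of 137 carried WOC, or 73.7% (65.8 to 80.4), beside 1718 of 2752, or 62.4% (60.6 to 64.2), of ROW peaks with neither HP1 protein. The difference was 11.3 points (3.15 to 18.2), and the 73.7% lay at the share of all ROW peaks, 74.4%. HP1b lay on 101 of 1819 ROW-WOC peaks without HP1c, or 5.55% (4.59 to 6.70), and on 36 of 1070 ROW peaks with neither WOC nor HP1c, or 3.36% (2.44 to 4.62).

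WOC peaks gave a reference for HP1b without HP1c. Of all 4896 WOC peaks, 34.3% overlapped HP1b. Of the 2275 without HP1c, 165 did, or 7.25% (6.26 to 8.39). These were split unevenly by ROW: HP1b lay on 99 of 1851 such WOC peaks with ROW, or 5.35% (4.41 to 6.47), and on 66 of 424 without ROW, or 15.6% (12.4 to 19.3). At WOC sites that lack HP1c, HP1b was therefore found less often where ROW was present, with a difference of -10.2 points (-14.1 to -6.88). It was -8.96 points (-13.0 to -5.60) on the main arms alone. With HP1c present the shares were 58.4% (56.3 to 60.5) with ROW and 54.3% (49.9 to 58.7) without, and the interval of their difference, -0.757 to 9.02 points, included 0.

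H3K4me3, the histone mark of active promoters, ran in opposite directions in the 2 lists when an overlap of 1 bp counted. ROW peaks with HP1b carried the mark less often than ROW peaks without it. With HP1c the shares were 425 of 1337, or 31.8% (29.3 to 34.3), and 500 of 1076, or 46.5% (43.5 to 49.5). Without HP1c they were 47 of 137, or 34.3% (26.9 to 42.6), and 1494 of 2752, or 54.3% (52.4 to 56.1). The differences were -14.7 points (-18.5 to -10.8) and -20.0 points (-27.6 to -11.5), beside 46.5% marked among all ROW peaks. Both depended on the definition of overlap. When 0.5 of the shorter peak had to be covered, the difference with HP1c turned to 1.07 points (-1.69 to 3.79), and without HP1c it was -11.0 points (-15.7 to -4.11), from 11.6% and 22.6%. With centres within 200 bp they were -0.501 (-2.46 to 1.43) and -9.76 points (-12.0 to -5.74), the latter from 3.43% and 13.2%. The looser rule, a gap of up to 500 bp counted as overlap, gave larger differences. They were -18.7 (-22.5 to -14.7) and -25.8 points (-34.0 to -17.2).

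HP1b peaks with ROW carried the mark more often than HP1b peaks without it. With HP1c the shares were 278 of 1346, or 20.7% (18.6 to 22.9), and 16 of 543, or 2.95% (1.82 to 4.73). Without HP1c they were 32 of 142, or 22.5% (16.4 to 30.1), and 20 of 477, or 4.19% (2.73 to 6.39), against 13.8% of all HP1b peaks. The differences were 17.7 points (15.0 to 20.2) and 18.3 points (11.9 to 26.0). With 0.5 of the shorter peak they were 8.43 (6.10 to 10.5) and 9.58 points (4.75 to 16.1). With centres within 200 bp they were 4.36 (2.69 to 5.96) and 0.600 points (-1.54 to 4.27). A gap of up to 500 bp counted as overlap gave larger differences, 31.2 (27.9 to 34.2) and 35.9 points (27.6 to 44.5). On the main arms alone all 4 differences at 1 bp kept their direction, at -14.5 and -19.7 points for ROW and 18.1 and 18.9 points for HP1b.

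**Figure D3:**
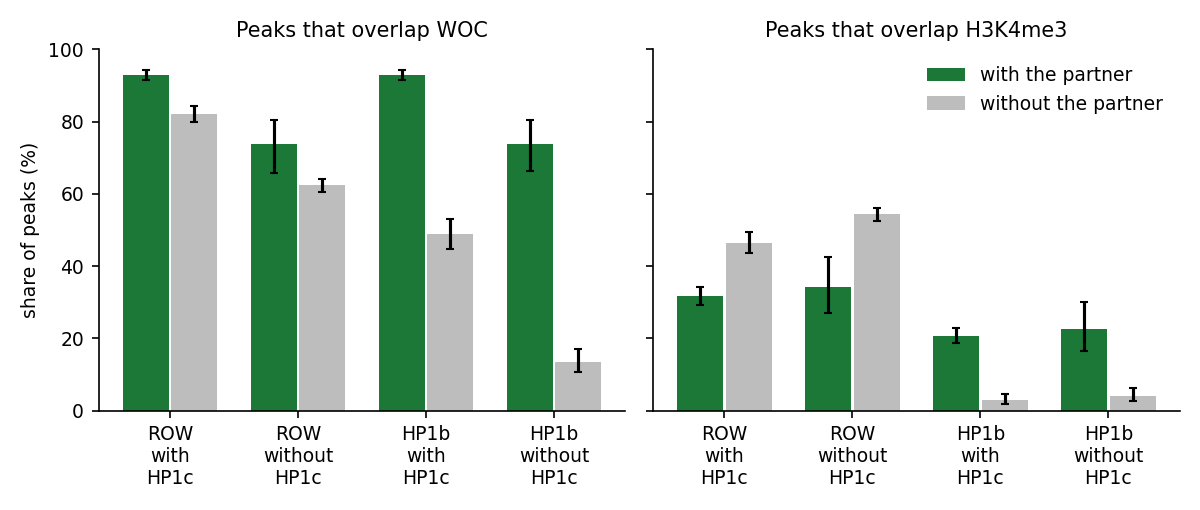
Share of peaks (%) that overlap a WOC peak (left) or an H3K4me3 peak (right), for ROW and HP1b peaks with or without HP1c. Green bars are peaks that overlap the partner (HP1b for ROW, ROW for HP1b), grey bars those that do not, and error bars are 95% Wilson intervals. In the right panel, at an overlap of 1 bp, green is below grey for ROW and above grey for HP1b; for ROW with HP1c the order turned when 0.5 of the shorter peak had to be covered.

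Distance to the mark gave the order seen at 1 bp. The H3K4me3 peaks had a median width of 606 bp, so an overlapping one usually has its summit close by. The distance is therefore a looser form of the 1 bp rule and no separate support. Among peaks with HP1c, an H3K4me3 summit lay within 1 kb of the centre of 34.5% of ROW peaks with HP1b and 53.5% without. Without HP1c it was 53 of 137 ROW peaks with HP1b, or 38.7%, and 1826 of 2752 ROW peaks with neither HP1 protein, or 66.4%. For HP1b peaks without HP1c it lay within 1 kb of 58 of 142 with ROW, or 40.8%, and of 23 of 477 without, or 4.82%. The median distance was 2607 bp for the former and 15760 bp for the latter. The strength of the mark was also compared where it was present. The authors' fold enrichment of the mark had a median of 4.16 (quartiles 3.34 and 4.90) at the 47 marked ROW peaks with HP1b and no HP1c and of 4.23 (3.57 and 4.92) at the 1494 with neither HP1 protein. At the 425 marked ROW peaks with both HP1 proteins it was 4.59 (3.59 and 5.81), beside 4.42 (3.79 and 5.29) at the 500 with HP1c and no HP1b. At marked HP1b peaks with HP1c the median was 4.60 (3.19 and 5.98) over 278 with ROW and 3.46 (2.27 and 4.56) over the 16 without. Without HP1c it was 4.26 (3.59 and 5.28) over 32 with ROW and 4.19 (2.33 and 5.07) over 20 without.

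HP1b without HP1c was rare at promoter-marked sites. The unplaced contigs U and Uextra hold H3K4me3 peaks but no factor peak and were left out here. HP1b lay on 6.27% of the 5554 other H3K4me3 peaks. Of the 4862 of them without HP1c, it lay on 44 of 2168 with ROW, or 2.03% (1.52 to 2.71), and on 15 of 2694 without ROW, or 0.557% (0.338 to 0.917), 1.47 points apart (0.845 to 2.19). With WOC beside ROW the share was 41 of 1621, or 2.53% (1.87 to 3.41). With ROW and no WOC it was 3 of 547, or 0.548% (0.187 to 1.60), close to the 0.585% (0.355 to 0.963) at the 2565 peaks with neither. WOC without ROW had none of 129, where the interval reaches 2.89%. HP1b peaks that carried both WOC and the mark were nearly all ROW peaks, 28 of 29 without HP1c and 275 of 284 with it. This is not particular to HP1b. Of all H3K4me3 peaks with WOC and no HP1c, 1621 carried ROW and 129 did not.

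The shared share varied along the genome. ROW peaks overlapped HP1b in 25.0% (23.7 to 26.4) on 2L, 2R, 3L and 3R together, in 13.1% (10.8 to 15.8) on X, in 71.2% (64.8 to 76.8) on chromosome 4 and in 62.6% (57.4 to 67.5) on the heterochromatin contigs. Chromosome 4 is small and largely packaged as heterochromatin, with active genes inside it. Among the 4 large autosome arms the share was between 20.1% on 3R and 28.1% on 2L and 3L. Chromosome 4 and the heterochromatin contigs held 374 of the 1474 shared ROW peaks, or 25.4%, and 194 of the 3828 unshared, or 5.07%.

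The low share on X went with few HP1c sites there. HP1c lay on 172 of 711 ROW peaks on X, or 24.2% (21.2 to 27.5), and on 44.0% (42.4 to 45.5) on the autosome arms. Among ROW peaks with HP1c, HP1b was present at 47.7% (40.3 to 55.1) on X and 50.8% (48.5 to 53.2) on the autosome arms, and the interval of the difference was -10.9 to 4.62 points. Without HP1c it was present at 11 of 539 on X, or 2.04% (1.14 to 3.62), and 107 of 2254, or 4.75% (3.94 to 5.70), a difference of -2.71 points (-4.02 to -0.937). Seen from HP1b, 92 of 146 HP1b peaks on X overlapped ROW, or 63.0% (54.9 to 70.4), beside 58.5% (56.2 to 60.9), and the interval of the difference was -3.93 to 12.2 points.

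Chromosome 4 and the heterochromatin contigs kept a higher share within both HP1c classes when seen from ROW. With HP1c, HP1b lay on 145 of 183 ROW peaks of chromosome 4, or 79.2%, and 210 of 289 of the heterochromatin contigs, or 72.7%, which were 28.4 points (21.5 to 34.1) and 21.8 points (15.9 to 27.2) above the autosome arms. Without HP1c the counts were small, 8 of 32, or 25.0% (13.3 to 42.1), and 11 of 64, or 17.2% (9.88 to 28.2). From HP1b the 2 regions parted. On chromosome 4, 168 of 215 HP1b peaks met ROW, or 78.1% (72.1 to 83.1), 19.6 points (13.2 to 25.1) above the autosome arms. On the heterochromatin contigs 220 of 426 did, or 51.6% (46.9 to 56.4), a difference of -6.90 points (-12.2 to -1.64). Without HP1c, 12 of 93 HP1b peaks there met ROW, or 12.9% (7.54 to 21.2), beside 23.7% (20.0 to 27.8) on the autosome arms.

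**Figure D4:**
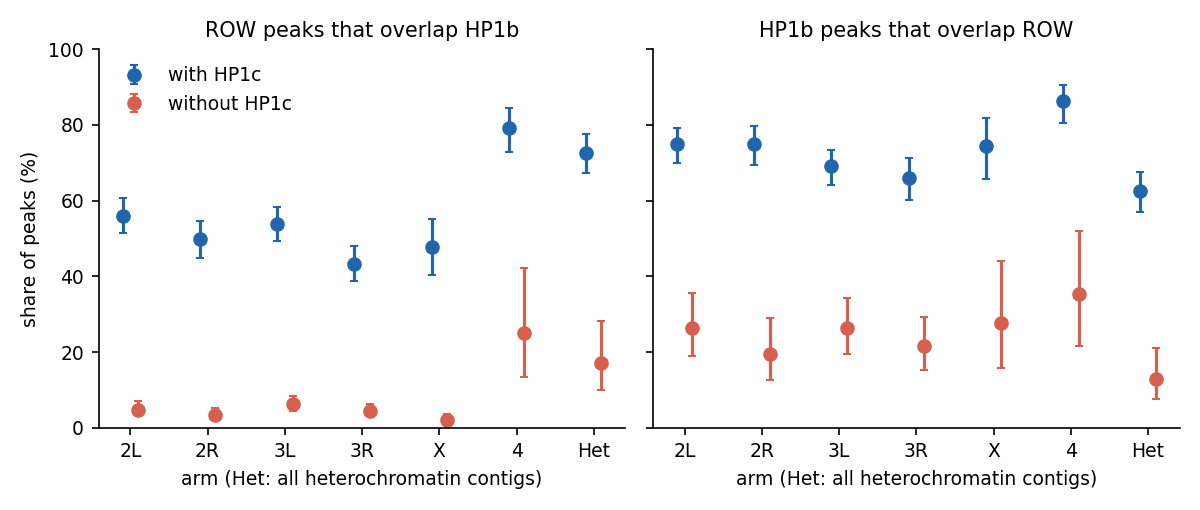
Share of ROW peaks that overlap HP1b (left) and of HP1b peaks that overlap ROW (right), in %, by chromosome arm, with HP1c (blue) or without (red). Points are shares and bars 95% Wilson intervals. On every arm and in both panels the blue point lies above the red, and chromosome 4 has the highest point of each of the 4 series.

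Seen from ROW, the sites near the centromeres of the main arms stood between the rest of these arms and the heterochromatin contigs. In the 2 Mb of each main arm nearest its centromere, 229 of 509 ROW peaks overlapped HP1b, or 45% (40.7 to 49.3), beside 870 of 4224, or 20.6% (19.4 to 21.8), in the rest. Without HP1c the shares were 23 of 194, or 11.9% (8.03 to 17.2), and 95 of 2599, or 3.66% (3.0 to 4.45). Seen from HP1b they did not stand between. Near the centromeres 232 of 371 HP1b peaks overlapped ROW, or 62.5% (57.5 to 67.3). The share was 58.0% (55.5 to 60.5) in the rest of the arms and 51.6% on the heterochromatin contigs. For HP1b peaks without HP1c, 27 of 97 overlapped ROW near the centromeres, or 27.8% (19.9 to 37.5), beside 91 of 395, or 23.0% (19.2 to 27.4), in the rest. Shared ROW peaks of the main arms were a median of 49.4 kb from the next, and the 118 without HP1c a median of 567 kb, with 1 of 113 spacings within 10 kb. All 4733 ROW peaks there had a median spacing of 9.29 kb, with 51.9% of spacings within 10 kb. Spacing widens as a class holds fewer peaks, so these values do not describe clustering. These 118 peaks were spread over all 5 main arms, with 26 on 2L, 17 on 2R, 35 on 3L, 29 on 3R and 11 on X. In that order they were 4.84%, 3.39%, 6.18%, 4.46% and 2.04% of the ROW peaks without HP1c on the arm.

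Peaks without HP1c were narrower than those with it in both lists. ROW peaks with HP1c had a median width of 517 bp with HP1b and 519 bp without. ROW peaks without HP1c had medians of 346 bp with HP1b and 413 bp without it. HP1b peaks with HP1c had medians of 423 bp with ROW and 360 bp without, and those without HP1c 319.5 bp and 310 bp. The factor lists give no other measure of strength.

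Within 4 equal classes of the HP1b list by width, the gap between peaks with and without HP1c remained. In the narrowest (250 to 299 bp) ROW lay on 215 of 363 HP1b peaks with HP1c, or 59.2% (54.1 to 64.2), and on 53 of 264 without, or 20.1% (15.7 to 25.3). In the widest (505 bp and more) it lay on 482 of 590, or 81.7% (78.4 to 84.6), and on 6 of 37, or 16.2% (7.65 to 31.1). Over the 4 classes the share rose with width among HP1b peaks with HP1c (59.2%, 67.3%, 71.1% and 81.7%), and among those without it ranged from 16.2% to 27.0% with no order by width. The ROW list showed no such rise. Over its 4 width classes, HP1b lay on 51.1%, 58.5%, 52.0% and 58.1% of ROW peaks with HP1c, and on 7.24%, 3.4%, 2.81% and 5.92% of those without, where the narrowest class was the highest.

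**Figure D5:**
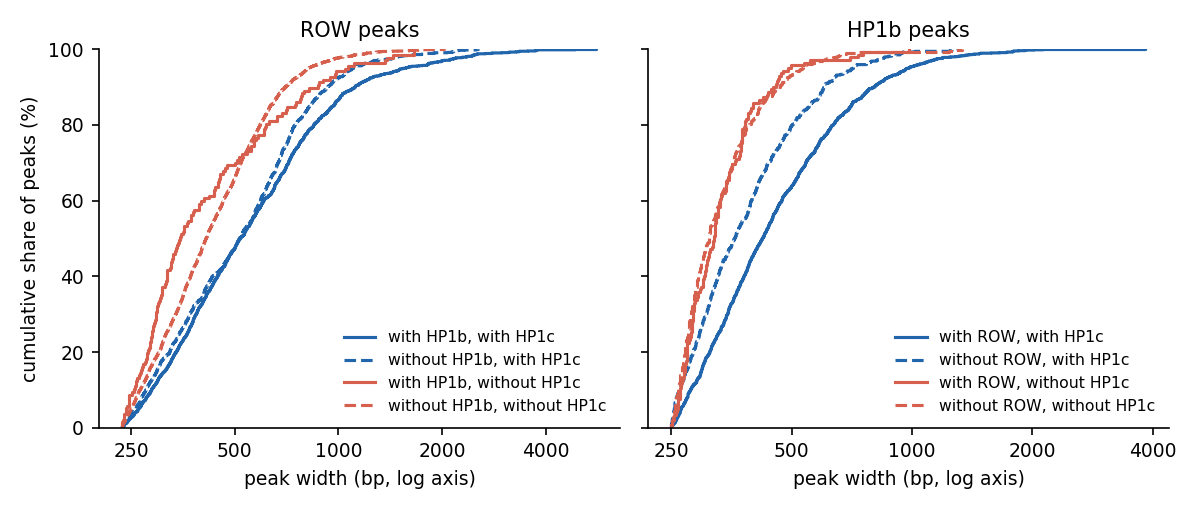
Cumulative share of peaks (vertical axis, %) by peak width (horizontal axis, bp on a log scale), for ROW peaks (left) and HP1b peaks (right) with or without the partner and HP1c, the mitochondrial peak left out. The red lines, without HP1c, lie to the left of the blue lines over most of the range, so peaks without HP1c were the narrower.

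Single regions are given in dm3 coordinates, counted from 1. The genes there were not analysed here. The 4 longest stretches shared by ROW and HP1b with HP1c all lay on chromosome 4. The first was 3843 bp long, where the HP1b peak at 1218772 to 1222614 sat inside a ROW peak of 5614 bp. The others were the pairs with ROW peaks at 109912 to 111774 (1794 bp shared), 334262 to 336412 (1781 bp) and 709222 to 711055 (1767 bp). All 4 carried WOC, and the first 3 carried H3K4me3, with fold enrichments of 8.02, 4.23 and 7.64. Of all 1370 pairs with HP1c, 93.2% carried WOC on either peak and 32.8% H3K4me3.

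Without HP1c on either peak the stretches were shorter and lay on several arms. The longest, 981 bp, was on chromosome 4, with ROW at 273260 to 274626 and HP1b at 273391 to 274371. The next lay on 3L, with ROW at 3041771 to 3042589 and HP1b at 3041882 to 3042615 (708 bp shared). On 2R, ROW at 1193813 to 1195475 enclosed HP1b at 1194341 to 1194830 (490 bp), and ROW at 10122803 to 10123378 enclosed HP1b at 10122897 to 10123360 (464 bp). All 4 also carried WOC and H3K4me3, with fold enrichments of 6.85, 4.21, 7.82 and 4.46. They were picked for their length and are not typical: of all 132 pairs without HP1c, 97 carried WOC on either peak (73.5%) and 47 H3K4me3 (35.6%). The region of 2R at 1193813 was also the most strongly marked of the pairs without HP1c. It was followed by chromosome 4 at 924862 to 925806 (fold enrichment 7.0), and the fourth was on 3L at 7967993 to 7968518 (6.03).

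The widest peaks of 1 factor without the other completed the picture. The widest ROW peak without HP1b was on 2R at 975874 to 978420 (2547 bp), followed by chromosome 4 at 680417 to 682920 (2504 bp), 3R at 7604039 to 7606358 (2320 bp) and chromosome 4 at 1201793 to 1203983 (2191 bp). All 4 overlapped HP1c and WOC, so these wide ROW sites lacked HP1b alone among the factors. Of all ROW peaks without HP1b, 28.1% overlapped HP1c. The 4 were picked for width, and wide ROW peaks carried HP1c more often. In the widest width class of the ROW list, with or without HP1b, 887 peaks carried HP1c and 439 did not. WOC lay on 82.2% of ROW peaks with HP1c and no HP1b. The widest HP1b peaks with HP1c and no ROW were on 3L at 8930079 to 8931381 (1303 bp) and at 19134139 to 19135398 (1260 bp), and neither carried H3K4me3. With neither HP1c nor ROW, the widest HP1b peaks were a pair of neighbours on 3L at 24162622 to 24163910 (1289 bp) and 24167144 to 24168478 (1335 bp), with no WOC and no H3K4me3. The third, on chromosome 4 at 294774 to 296010 (1237 bp), carried H3K4me3 and no WOC. The fourth, on 2L at 2358539 to 2359421 (883 bp), carried WOC and no H3K4me3. Of all 477 such HP1b peaks, 65 carried WOC, or 13.6%, and 20 carried H3K4me3, or 4.19%. The mitochondrial genome lay almost wholly under 1 peak of each factor, 19451 bp wide for ROW and 19434 bp for HP1b, and this counts as 1 shared site with HP1c above.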

How the data were processed

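The authors deposited 1 peak list per antibody, in which the replicates are already merged in an unstated way. Per the submitters' processing notes the build was dm3 and the tools were Bowtie2, SAMtools, MACS2 and deepTools, with no versions, roles or thresholds in the sources used here. The factor lists hold chromosome, start and end alone. Of the deposited H3K4me3 list, the authors' fold enrichment (a ratio to background, at the summit) and the summit position were also used. Its peak names point to calling by MACS2 against IgG. The gene table at hand is of another build, so no gene, promoter or sequence was used.

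Overlaps were counted at 1 bp or more, and checked on simulated peaks with planted overlaps. Shares carry Wilson and differences Newcombe intervals. The members, classes and splits were chosen with earlier results of these data known. Named regions were the 4 with the longest shared stretch, widest peak or, for marked pairs without HP1c, highest mark enrichment in each of 6 classes on the main arms and chromosome 4. Some are omitted from the text. Alternatives covered overlap, contigs, width and the definition of HP1c absence. Overlaps and intervals were computed with SciPy 1.17.1, pandas 2.3.3 and NumPy 2.4.6 under Python 3.11.15, and plots drawn with matplotlib 3.10.9.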

Additional observations from a re-analysis of the deposited data

How the results depend on the processing

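No paired analysis was possible because the replicates of an antibody are merged in a single list without replicate numbers, and for the same reason no replicate could be left out. Of 69 values under alternatives for 9 results, 47 stayed within the 95% interval of the value reported and 22 moved outside it. With centres within 200 bp, the share of ROW peaks with HP1b was 24.1%, of HP1b peaks with ROW 50.9%, of ROW peaks with HP1c that have HP1b 51.4% and of HP1b peaks with HP1c that have ROW 65.0%. On the main arms alone the first was 23.2% and the third 50.6%. With only peaks above the median width of each factor list, these 4 shares were 20.9%, 45.2%, 53.0% and 56.7%, and without HP1c they were 2.49% for ROW and 13.9% for HP1b. With only peaks below the median they were 11.4%, 24.1%, 25.7% and 31.7%, and 8.53% for ROW without HP1c. By construction, taking part of each list also removes partners and HP1c peaks. The gap between peaks with and without HP1c kept its direction in all 7 settings of overlap, contigs and width. With no HP1c peak within 5 kb, 3.59% of ROW peaks had HP1b. The share of ROW-HP1b peaks without HP1c that carry H3K4me3 was 11.6% when 0.5 of the shorter peak had to be covered and 3.43% with centres within 200 bp. For ROW peaks with HP1c, the marked share with HP1b minus that without turned from -14.7 to 1.07 points when 0.5 of the shorter peak had to be covered. The other definitions of overlap were applied to these differences after seeing the data, and the cause was not tested in either case. The median distance between centres was 70.5 bp for wide and 42 bp for narrow peaks, and the overlap rule allows narrow peaks less distance. Depth per library is unknown, so a missing HP1c or HP1b peak may be a site below the authors' threshold.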
